A study of Mus musculus with 20 samples.

Results

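Clustered distal H3K27ac enhancers are stretches of the genome in which several acetylated regions far from any gene start lie close together. In WT Lin- bone marrow cells, 586 such clusters were found, holding 3303 of the 10664 autosomal H3K27ac peaks (31.0%) that lay more than 3000 bp from every annotated transcript start. The members were selected on measured values, namely the positions of peaks in the WT H3K27ac list: distal peaks were stitched when the gap between them was at most 12.5 kb, and stitched regions with 4 or more peaks were kept. The 586 clusters were 10.3% of 5680 stitched regions, and the whole WT list held 29659 peaks, 29012 of them on the 19 autosomes. The number of WT peaks in a cluster is therefore a description and not a finding. What the rule did not use is how many of those peaks recurred in the H3K27ac lists of the other genotypes, and the other marks, genes, and sequences at the clusters.

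H3K27ac, acetylation of lysine 27 of histone H3, is laid down mainly by p300 (gene *Ep300*) and its close relative CBP, and it marks active promoters and enhancers. H3K4me1 lies at enhancers whether or not they are active, and H3K4me3 lies mainly at promoters. Long arrays of acetylated enhancers are known to lie beside genes that set a cell's identity, in blood often genes of transcription factors and cytokine receptors. TET2 oxidizes 5-methylcytosine in DNA, an early step of DNA demethylation, and has been tied to enhancer function in stem and progenitor cells.

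The study asked how loss of p300 alters the enhancers of *Tet2*-deficient progenitors. WT mice carried *Ep300* fl/fl without Cre, *Ep300*Δ/Δ mice were Mx1-Cre;*Ep300* fl/fl, and *Tet2*-/- mice were *Ep300* fl/fl;*Tet2*-/-. The double mutant (*Ep300*Δ/Δ*Tet2*-/-) was Mx1-Cre;*Ep300* fl/fl;*Tet2*-/-. All were on the C57BL/6 background, and all received poly(I:C), which switches on Mx1-Cre. Mx1-Cre is active wherever interferon signaling reaches, in blood cells and in other tissues, whereas the *Tet2* allele was lost from the germ line. Mice were given poly(I:C) at 6 to 8 weeks of age, and the general rule of the study was to take samples 2 weeks later unless another time was given. No time is given for ChIP-Seq itself in the sources used here. Lin- cells are what remains of bone marrow after cells with markers of mature lineages are depleted, so they are a mixture rich in stem and progenitor cells, and fewer cells of one type cannot be told apart from less acetylation per cell. Each group had 1 library per mark (12 peak lists in all), with no replicates, so no difference between genotypes was tested. Intervals given in parentheses after a share are exact Clopper-Pearson 95% intervals. They cover counting error only and treat neighboring peaks as independent, which they are not. The H3K27ac lists held 29659 peaks in WT, and between 18327 (double mutant) and 24539 (*Tet2*-/-) in the other genotypes. Read depth cannot be read from peak lists, so the length of a list and the loss of acetylation cannot be told apart, and this touches every count of kept peaks below.

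The DNA at the clusters is shown first by the strongest WT peak of each of the 5 largest clusters, because these peaks all had an overlapping H3K27ac peak in all 3 other genotypes. Each sequence is 201 bases of GRCm38 (mm10), plus strand, centered on the peak summit. Capitals mark matches on either strand to short consensus sequences of blood transcription factors. GATA factors were searched as the letters AGATAA, ETS factors in general as AGGAAG, and their member PU.1 with the longer run GAGGAAGT. For RUNX factors the letters were TGTGGTT, for CEBP factors TTGCNNAA, for AP-1 factors TGANTCA, for MYB the run AACNGCC, and for E-box factors CAGCTG. The IRF and CTCF consensus sequences were searched as well. Every PU.1 match is by its letters also an ETS match.
Etv6, chr6:134115477-134115677: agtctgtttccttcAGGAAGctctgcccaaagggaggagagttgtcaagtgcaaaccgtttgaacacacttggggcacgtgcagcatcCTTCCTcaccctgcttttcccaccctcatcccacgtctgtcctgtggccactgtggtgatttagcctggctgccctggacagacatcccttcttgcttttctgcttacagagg
Zfp36l2, chr17:84121371-84121571: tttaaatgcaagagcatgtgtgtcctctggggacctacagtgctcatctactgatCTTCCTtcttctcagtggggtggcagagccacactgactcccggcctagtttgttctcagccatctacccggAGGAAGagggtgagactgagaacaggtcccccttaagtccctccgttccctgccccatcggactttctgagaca
Tomm20, chr8:126849774-126849974: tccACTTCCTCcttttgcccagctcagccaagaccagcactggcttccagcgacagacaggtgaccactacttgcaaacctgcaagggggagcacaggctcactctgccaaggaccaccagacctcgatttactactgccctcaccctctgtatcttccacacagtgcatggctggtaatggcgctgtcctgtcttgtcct
Gng12, chr6:66953922-66954122: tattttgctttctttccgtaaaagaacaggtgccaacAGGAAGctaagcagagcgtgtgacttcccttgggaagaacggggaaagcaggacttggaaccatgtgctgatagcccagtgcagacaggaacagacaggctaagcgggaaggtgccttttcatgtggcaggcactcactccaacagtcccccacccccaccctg
Rreb1, chr13:37870334-37870534: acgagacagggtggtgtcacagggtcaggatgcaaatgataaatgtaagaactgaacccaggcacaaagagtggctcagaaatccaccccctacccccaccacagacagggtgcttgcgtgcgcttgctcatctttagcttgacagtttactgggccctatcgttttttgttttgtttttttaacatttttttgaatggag
The *Etv6* sequence, in an intron 30539 bp from the nearest transcript start, held 2 ETS matches, as did that of *Zfp36l2*. That of *Tomm20* held the PU.1 match, the *Gng12* sequence held 1 ETS match, and the *Rreb1* sequence held none of the 10 consensus sequences. As a contrast, the strongest peak without H3K27ac in *Ep300*Δ/Δ is shown for 2 of the clusters of 5 or more peaks that head the order by lowest share kept in *Ep300*Δ/Δ. These peaks had no overlapping H3K27ac peak in any of the 3 other genotypes.
St3gal1, chr15:67118681-67118881: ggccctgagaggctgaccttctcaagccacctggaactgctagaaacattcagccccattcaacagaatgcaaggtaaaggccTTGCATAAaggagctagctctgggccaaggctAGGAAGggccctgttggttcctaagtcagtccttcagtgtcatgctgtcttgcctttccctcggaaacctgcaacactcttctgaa
Apbb1ip, chr2:22783986-22784186: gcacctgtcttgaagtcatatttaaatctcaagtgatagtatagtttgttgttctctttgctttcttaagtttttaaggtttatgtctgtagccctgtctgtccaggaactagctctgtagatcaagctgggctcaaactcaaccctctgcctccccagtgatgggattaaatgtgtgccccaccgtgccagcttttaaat
The *St3gal1* sequence held an ETS and a CEBP match, and the *Apbb1ip* sequence held none. In the reference, 57.7% of the *Apbb1ip* bases were soft-masked as repeats, against 0% for *St3gal1*. Among the 5 sequences from the largest clusters the soft-masked share ran from 0% at *Etv6* to 41.3% at *Rreb1*.

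Most clusters were short. Their spans ran from 1.75 to 60.2 kb with a median of 12.4 kb, summed to 8.40 Mb, and were covered to 23.2% by the clustered peaks themselves. The median cluster had 5 peaks, 266 clusters had exactly 4, and 50 had 10 or more. Neighboring peaks of a cluster were often pieces of one neighborhood, since the median gap was 0.645 kb and 57.5% of 2717 gaps were under 1 kb, whereas 138 gaps were over 10 kb. Introns held 59.6% of the clustered peaks (57.9% to 61.3%), intergenic sequence 34.3% (32.7% to 35.9%), and exons 6.12%. The same shares among the 7361 distal peaks outside the clusters were 53.7%, 38.2%, and 8.08%. The median fold enrichment over the H3 library was 5.72 for clustered peaks and 5.32 for the others, and the median width was 466 and 394 bp. At the edge of the rule, the 527 regions with 3 peaks just outside it had a median span of 4.76 kb and a median fold of 5.56. The 266 regions with 4 peaks just inside it had 8.93 kb and 5.51.

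Chromosome 14 had the highest share of its distal peaks in clusters (39.9% of 456), and chromosome 3 the lowest (22.3% of 466). Chromosome 2 had the most clusters (49).

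The label of the set as enhancers was checked against the methylation marks of WT, whose sample titles read H3Kme1 and H3Kme3 and were taken as H3K4me1 and H3K4me3 from the antibodies. An H3K4me1 peak overlapped 93.9% of clustered peaks (93.0% to 94.6%), against 85.7% of the other distal peaks (84.8% to 86.5%) and 88.2% of all distal peaks. An H3K4me3 peak overlapped 22.6% of clustered peaks (21.1% to 24.0%), against 28.6% of the others (27.6% to 29.7%) and 26.7% of all. The clustered peaks thus carried the enhancer mark more often, and the promoter mark less often, than other distal acetylated regions of the same list, and neither pair of intervals overlapped. H3K4me1 peaks were present in 584 of the 586 spans and covered a median of 53.7% of a span. H3K4me3 peaks were present in 383 spans, 93 spans held an annotated start between their peaks, and 224 promoter-side H3K27ac peaks of WT lay inside the spans.

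Each cluster was named by the protein-coding gene whose start was nearest to its midpoint, a label of position that does not show which gene it acts on. The names came to 517 different genes, 512 midpoints lay under 50 kb from the named start, and the median distance was 16.4 kb. Naming by the gene nearest to most of a cluster's peaks gave the same gene in 576 of 586 clusters, but allowing genes of every biotype gave the same gene in 394. In WT, 85.1% of the naming genes (81.7% to 88.1%) had an H3K27ac peak at their own promoter, against 48.4% of all 20807 autosomal protein-coding genes. *Etv6* named 4 clusters with 46 peaks together, *Cxcr4* 3 with 24, *Cdk6* 3 with 22, and *Runx1* 3 with 18, and 60 genes named a pair of clusters each.

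Across all autosomal protein-coding gene names, 564 of 20780 (2.71%) named a cluster or had a gene body that overlapped one. This background includes genes that are silent in these cells, so shares of blood genes above it say little about clusters in particular. Of 20 stem and progenitor transcription factor genes, 6 were at a cluster: *Runx1*, *Tal1*, *Lmo2*, *Erg*, *Fli1*, and *Etv6*. All encode factors known from blood stem cells, and *Erg*, *Fli1*, and *Etv6* are members of the ETS family. Of 16 myeloid factor genes there were 2, *Spi1* (the gene of PU.1) and *Irf8*, which directs monocyte and dendritic cell fate. Of 20 cytokine and chemokine receptor genes there were 4. *Flt3* is the receptor of FLT3 ligand, *Ifngr1* a chain of the interferon gamma receptor, *Cxcr4* the receptor of CXCL12 that holds progenitors in the marrow, and *Ccr2* a monocyte chemokine receptor. Of 20 genes of proliferation, survival, and signal control there were 4: *Cdk6*, *Ccnd3*, *Mcl1*, and *Pim1*. The chromatin regulators *Hdac4*, *Hdac7*, and *Kdm6b* made 3 of 20.

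Among genes of mature lineages there were 2 of 13 erythroid genes (*Car2* and *Sptb*), 1 of 10 megakaryocyte genes (*Cd9*), 1 of 20 B-lymphoid genes (*Ikzf1*, which also acts in stem and progenitor cells), and 1 of 15 T and natural killer cell genes (*Klrb1c*). None of 14 neutrophil granule and myeloid effector genes was at a cluster. None of 20 genes of liver, neuron, muscle, or pluripotent cells and none of 10 endothelial and stromal genes was at one. At the background of 2.71%, lists of these lengths would often have no gene at a cluster, so these counts of 0 say little.

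In the other genotypes, most WT clusters kept part of their peaks. A WT peak was counted as kept when a peak of the other H3K27ac list overlapped it by at least 1 bp, and as lost otherwise. *Ep300*Δ/Δ kept 1421 of the 3303 clustered peaks (43.0%, 41.3% to 44.7%), against 37.8% of all distal peaks. *Tet2*-/- kept 1582 (47.9%, 46.2% to 49.6%), against 46.1%. The double mutant kept 979 (29.6%, 28.1% to 31.2%), against 28.9%. The double mutant list kept the fewest clustered peaks and was also the shortest list. With every other list cut to its 18327 strongest peaks, a setting added after the data were seen, *Ep300*Δ/Δ kept 33.4% and *Tet2*-/- 33.2%. With lists of equal size, a planned setting, *Ep300*Δ/Δ kept 57.4%, *Tet2*-/- 54.1%, and the double mutant 48.3%. In both settings the order of the genotypes remained only in that the double mutant was lowest. The *Ep300*Δ/Δ list held the most peaks near the limit of the peak caller, 1630 of 22727 with a q (the caller's adjusted p) over 0.05, against 199 of 24539 in *Tet2*-/- and 143 of 18327 in the double mutant. With only peaks of −log10 q 5 or more in the other list, *Ep300*Δ/Δ kept 23.3%, *Tet2*-/- 38.1%, and the double mutant 22.9%. With an overlap of at least 50% of the WT peak, *Ep300*Δ/Δ kept 28.2%.

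Set against the distal peaks outside clusters, the clustered peaks were kept 7.59 percentage points more often in *Ep300*Δ/Δ (35.4% outside), 2.59 points more in *Tet2*-/- (45.3% outside), and 1.00 point more in the double mutant (28.6% outside). The intervals were apart in *Ep300*Δ/Δ (34.3% to 36.5% outside). They overlapped in *Tet2*-/- (44.2% to 46.5% outside) and in the double mutant (27.6% to 29.7% outside). The lowest shares outside were those of lone distal peaks, at 30.5%, 41.9%, and 27.7% in the same order. Regions of 3 peaks, just outside the rule, kept 41.0%, 49.1%, and 29.2%, and clusters of 4 peaks, just inside it, 41.2%, 45.6%, and 29.2%, so across the edge of the rule the share in *Ep300*Δ/Δ moved by little and that in *Tet2*-/- was lower inside. The clustered peaks were also stronger in WT, with 30.1% of them and 22.7% of the others among the highest of 4 equal parts of all distal peaks by fold enrichment. Within these parts the difference in *Ep300*Δ/Δ was smaller but stayed positive, at 4.88, 2.16, 4.02, and 2.86 points from the highest part to the lowest. In *Tet2*-/- it was -0.79, -1.77, -3.35, and 1.37 points, and in the double mutant -2.13, -2.03, -4.68, and -0.74 points. The intervals of clustered and other peaks were apart in 2 of these 12 comparisons, the highest part in *Ep300*Δ/Δ (78.5% against 73.6%) and the third highest in the double mutant (13.5% against 18.2%). The small pooled difference in the 2 *Tet2*-/- groups, where the intervals overlapped, was not present among peaks of like WT fold, apart from the lowest part in *Tet2*-/-. The share kept differed far more between the parts by WT fold than between clustered and other peaks. In *Ep300*Δ/Δ, 78.5% of clustered peaks were kept in the highest part and 17.2% in the lowest, in *Tet2*-/- 79.4% and 25.7%, and in the double mutant 59.1% and 10.4%.

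**Figure D1:**
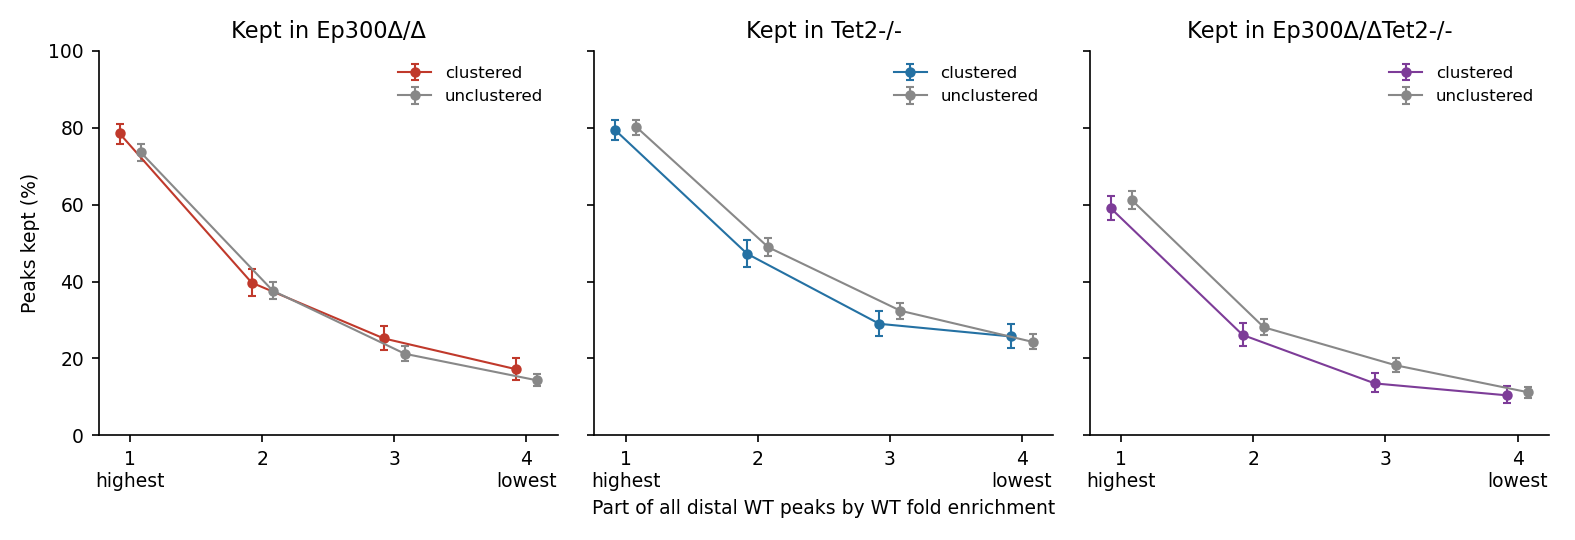
Share of distal WT H3K27ac peaks kept in each other genotype (vertical axis, %) in 4 equal parts of all distal WT peaks by WT fold enrichment (horizontal axis, 1 highest to 4 lowest), for clustered peaks (colored) and peaks outside clusters (grey), with exact 95% intervals. Shares kept drop steeply with WT strength, and the clustered points lie above the grey ones in all 4 parts only for *Ep300*Δ/Δ.

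Taking the 3 other lists together, 741 clustered peaks (22.4%) were kept in all 3 and 1320 (40.0%) in none, against 19.4% and 43.6% of the distal peaks outside clusters. A further 337 (10.2%, 9.19% to 11.3%) were kept in both single mutants and lost in the double mutant, against 7.68% (7.08% to 8.31%) of the distal peaks outside clusters. Clustered peaks kept in *Tet2*-/- alone numbered 402 (12.2%), in *Ep300*Δ/Δ alone 265 (8.02%), and in the double mutant alone 58 (1.76%). Outside clusters these shares were 13.7%, 6.39%, and 2.74%. Median WT fold enrichment was 9.75 for the clustered peaks kept in all 3, 7.25 for those kept in both single mutants only, and 4.71 for those kept in none. Outside clusters these medians were 8.66, 6.43, and 4.51. The shares by pattern were not matched for WT fold, and the double mutant list was the shortest.

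The strongest peak of a cluster was kept at a higher share than the rest of its peaks. This strongest WT peak of a cluster was kept in 453 of 586 clusters in *Ep300*Δ/Δ (77.3%), in 455 in *Tet2*-/- (77.6%), and in 354 in the double mutant (60.4%). The other 2717 peaks were kept at 35.6%, 41.5%, and 23.0%. The strongest peaks were picked by WT fold, with which the share kept rose. All clustered peaks in the highest part by fold were kept at 78.5%, 79.4%, and 59.1%, and those outside clusters at 73.6%, 80.2%, and 61.2%. Clustered peaks with a WT H3K4me3 peak were kept at 71.8%, 76.9%, and 59.5%, and those without one at 34.6%, 39.4%, and 21.0%. Outside clusters the same contrast was present, at 60.8%, 69.5%, and 55.8% with H3K4me3 and 25.3%, 35.6%, and 17.7% without. The clustered peaks with H3K4me3 also had a higher median fold (7.71 against 5.39), and the parts of strength and H3K4me3 in the share kept were not separated. Intergenic clustered peaks were kept at 46.3% in *Ep300*Δ/Δ, intronic ones at 40.2%, and exonic ones at 52.0%, with median folds of 6.12, 5.47, and 6.01. Outside clusters, intergenic peaks were kept at 37.9%, intronic ones at 33.5%, and exonic ones at 36.6%. Peaks whose 201-base window was soft-masked over more than 50% of its length (317 of 3303) were kept at 34.1%, 38.5%, and 21.1%, against 44.0%, 48.9%, and 30.5% for the rest, with similar median folds of 5.64 and 5.72.

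**Figure D2:**
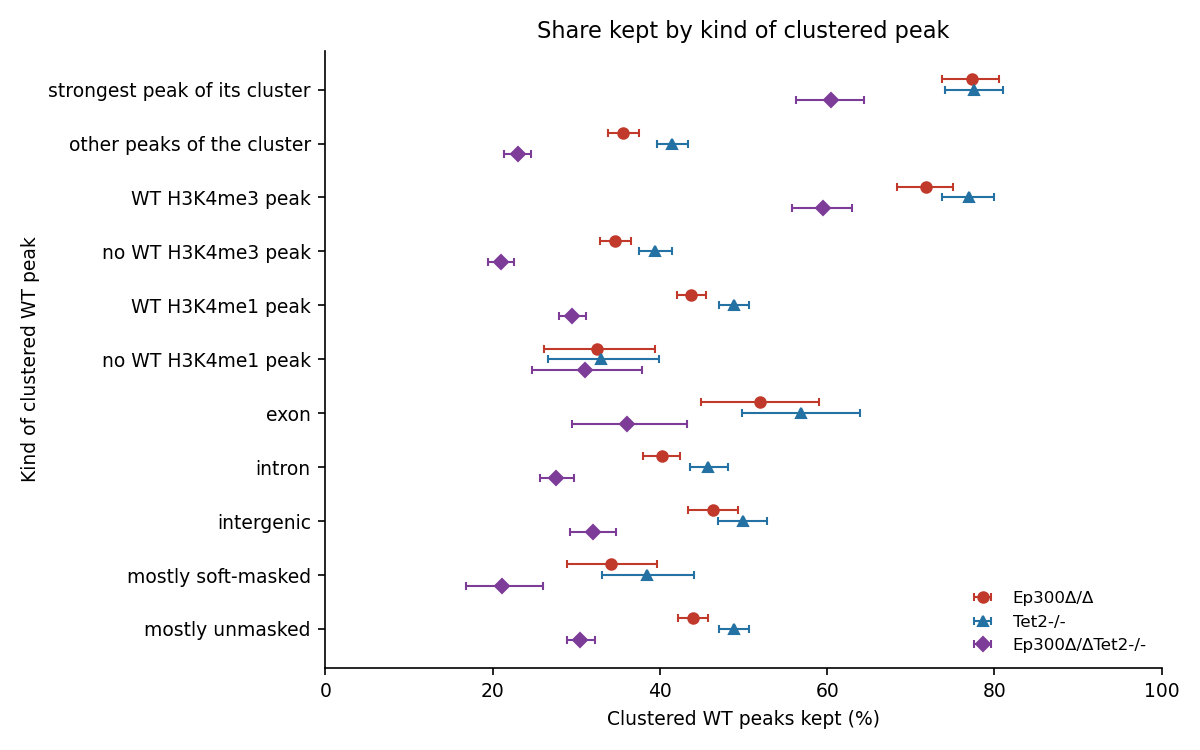
Share of clustered WT H3K27ac peaks kept in *Ep300*Δ/Δ, *Tet2*-/-, and the double mutant (horizontal axis, %) by kind of peak (vertical axis), with exact 95% intervals. Strongest peaks of a cluster and peaks with H3K4me3 in WT lie farthest to the right in all 3 genotypes.

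Counted by cluster, the median share of peaks kept was 40.0% in *Ep300*Δ/Δ and 50% in *Tet2*-/-, with 25.0% in the double mutant. Under 50% of the peaks were kept in 314, 264, and 436 of the 586 clusters, and no peak in 63, 36, and 136. Every peak was kept in 22, 21, and 9 clusters. The number of peaks in a cluster made little difference to the share: in *Ep300*Δ/Δ clusters of 4 peaks kept 41.2%, of 5 peaks 40.3%, of 6 to 9 peaks 45.6%, and of 10 or more peaks 44.8%, and the intervals of these classes overlapped. Between the single mutants, 237 clusters kept fewer peaks in *Ep300*Δ/Δ than in *Tet2*-/-, 147 kept more, and 202 kept the same number. The double mutant kept fewer peaks than *Tet2*-/- in 363 clusters, more in 44, and the same number in 179.

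The largest cluster lay inside *Etv6*, the gene of an ETS family repressor needed by blood stem cells (chr6:134110480-134157930, 47.5 kb). It had 20 peaks in WT, all intronic, of which 5 were kept in *Ep300*Δ/Δ and 6 in *Tet2*-/-, with 2 in the double mutant. One of the 20 was kept in all 3, the strongest (fold 15.0, its sequence is printed above), and 11 were kept in none, among them a peak with a WT fold of 10.4. H3K4me1 overlapped all 20 peaks in WT and 19 in each other genotype. The other *Etv6* clusters had 11 peaks (5, 8, and 3 kept in *Ep300*Δ/Δ, *Tet2*-/-, and the double mutant), 9 peaks (6, 6, and 4), and 6 peaks (2, 1, and 0).

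*Zfp36l2*, which encodes an RNA-binding protein that promotes decay of AU-rich mRNAs, named the second cluster (chr17:84089543-84128673, intergenic apart from 1 exon peak). Of its 17 peaks 8 were kept in *Ep300*Δ/Δ and 10 in *Tet2*-/-, with 7 in the double mutant. The cluster named by *Tomm20*, a subunit of the mitochondrial import receptor, lay 117 kb from that gene's start and nearer to the gene A630001O12Rik (chr8:126803951-126853258). It kept 10, 7, and 7 of 16 peaks. *Gng12*, a G protein subunit gene (chr6:66910459-66959295), kept 7, 8, and 5 of 15.

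*Rreb1*, the gene of a RAS-responsive zinc finger factor (chr13:37833234-37880931), kept 2 of 15 peaks in *Ep300*Δ/Δ and 7 in *Tet2*-/-, with 4 in the double mutant. It was the cluster among the 12 largest with the smallest share kept in *Ep300*Δ/Δ, and H3K4me1 still overlapped all 15 positions in all 4 genotypes. *Erg* (chr16:95415561-95455403) kept 6, 6, and 4 of 15 peaks. Its peaks of fold 24.7 and 16.0 were kept in all 3 genotypes, and 8 peaks, none above fold 5.72, were kept in none. *Zfp217*, a zinc finger gene (chr2:170151249-170185432), kept 8, 11, and 6 of 15, and *Tbc1d2b*, a Rab GTPase regulator gene (chr9:90233013-90261132), kept 5, 10, and 4 of 15. The *Tbc1d2b* promoter had an H3K27ac peak in the lists of WT, *Ep300*Δ/Δ, and *Tet2*-/- but not in that of the double mutant.

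*Elf1*, another ETS family factor gene, stood at the other end (chr14:79520952-79538295, 17.3 kb). Of its 15 peaks 14 were kept in *Ep300*Δ/Δ and 10 in *Tet2*-/-, with 12 in the double mutant, and 1 was kept in none. The remaining clusters of the 12 largest were those named by *Slc22a16*, which overlapped the gene body of *Cdk19* (7, 8, and 7 of 14), *Cmip* (5, 8, and 4 of 14), and *Cd47*, the gene of a surface signal against phagocytosis (10, 7, and 5 of 14).

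**Figure D3:**
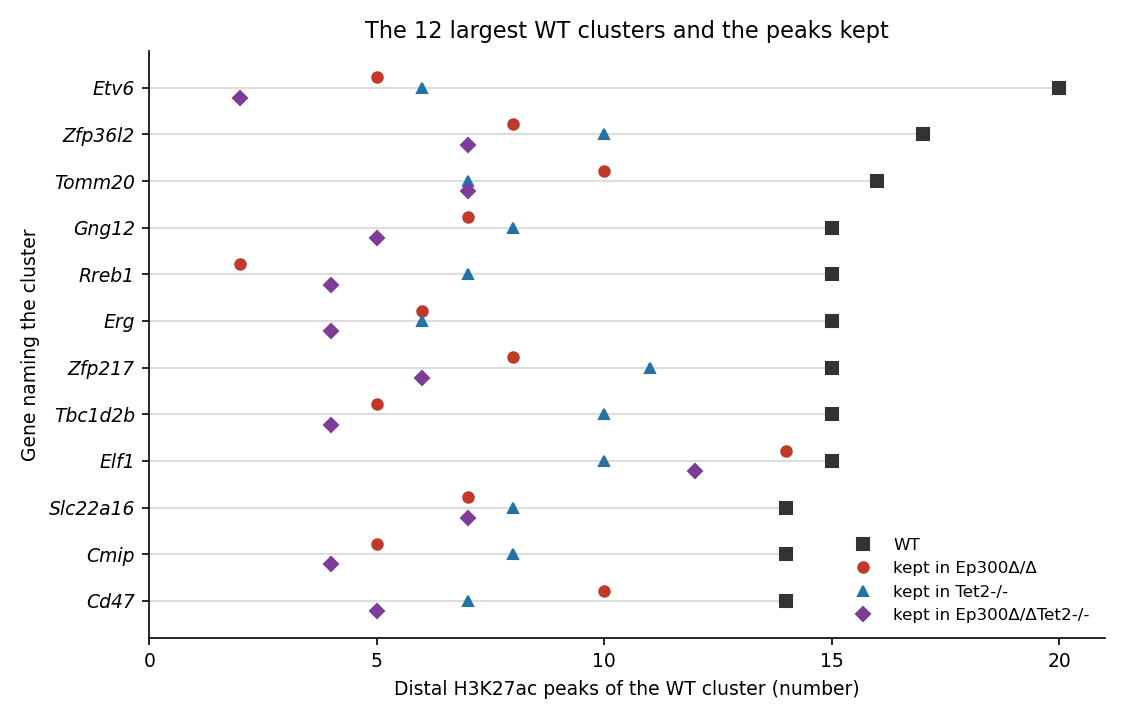
Number of distal WT H3K27ac peaks (squares, horizontal axis) in each of the 12 largest clusters, named on the vertical axis, and the number of those peaks kept in *Ep300*Δ/Δ (circles), *Tet2*-/- (triangles), and the double mutant (diamonds). *Elf1* keeps 14, 10, and 12 of 15 peaks, whereas *Etv6* keeps 5, 6, and 2 of 20.

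The maps of 4 clusters show how kept and lost peaks lay along a span. In *Etv6* the peaks kept in the double mutant were confined to the first 12 kb of the span, and the middle and far groups had no peak in that list. In *Irf8* (chr8:120760084-120793594), 9 of 12 peaks were kept in *Ep300*Δ/Δ, but 3 in *Tet2*-/- and 3 in the double mutant. Those kept in *Tet2*-/- were at the ends of the span. The WT folds of the *Irf8* peaks ran from 3.35 to 7.09.

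**Figure D4:**
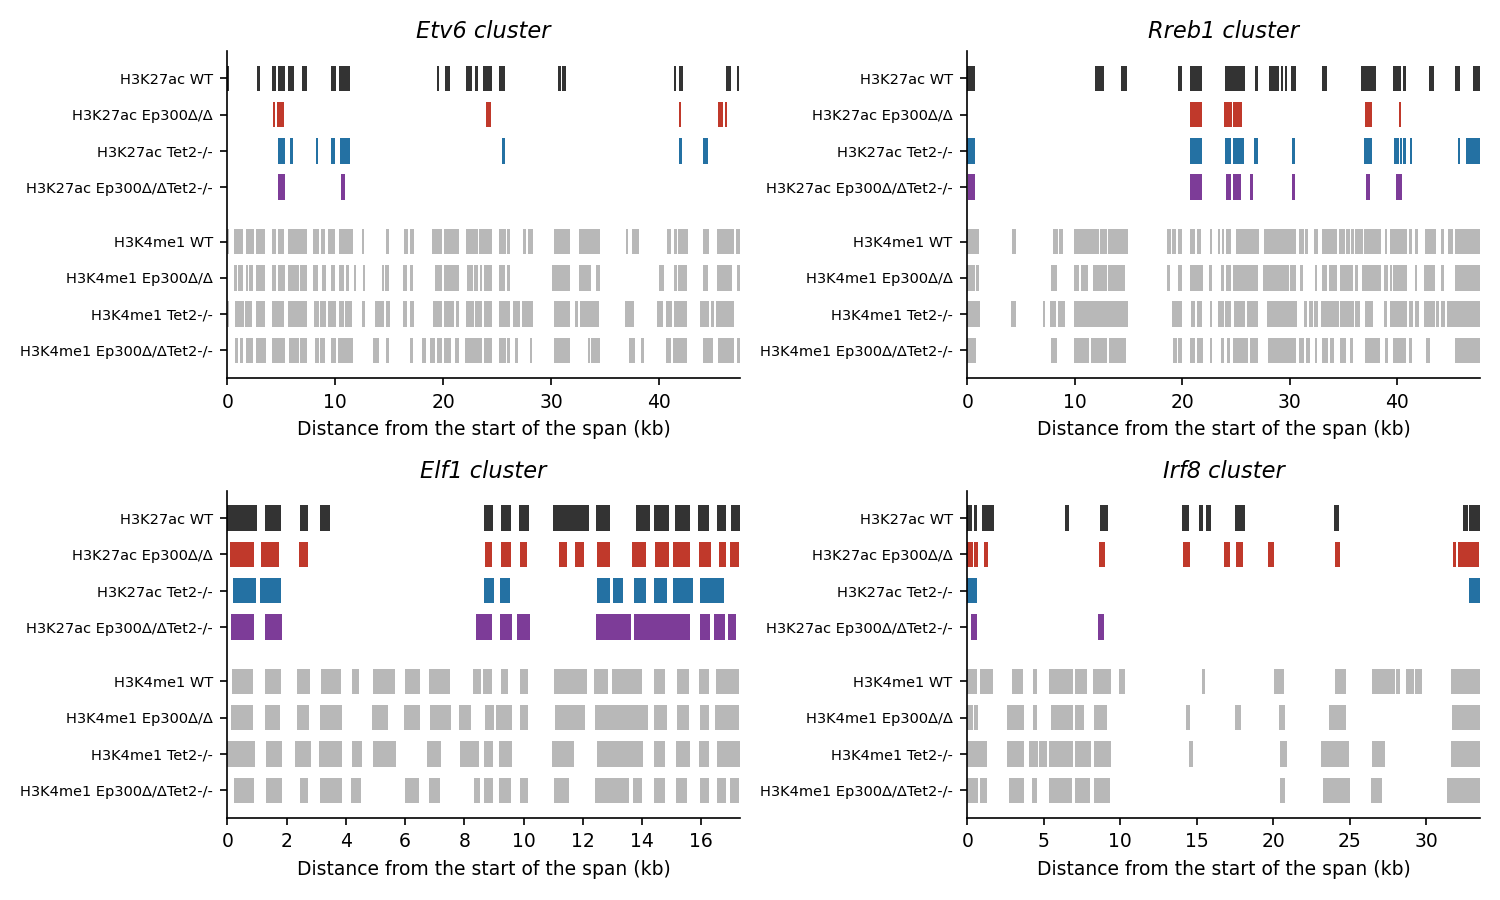
Peaks of H3K27ac (colored) and H3K4me1 (grey) in the 4 genotypes along the spans of the *Etv6*, *Rreb1*, *Elf1*, and *Irf8* clusters, in kb from the start of the span (horizontal axis). Each bar is 1 peak. Grey bars are present along each span in all genotypes, at *Irf8* over 37.4% of the span in WT and 26.1% in *Ep300*Δ/Δ, and at *Etv6* over 51.2% and 42.1%.

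Among the lists of blood genes, the stem and progenitor factors had 12 clusters with 107 peaks, of which 53 were kept in *Ep300*Δ/Δ (49.5%) and 57 in *Tet2*-/- (53.3%), with 30 in the double mutant (28.0%). Over all clustered peaks the shares were 43.0%, 47.9%, and 29.6%, so the stem and progenitor factors lay within 7 points of them. The 3 *Runx1* clusters kept 12, 12, and 6 of 18 peaks, and the 2 *Lmo2* clusters 7, 8, and 7 of 11. *Tal1* kept 3, 5, and 2 of 6, and *Fli1* 7, 5, and 2 of 11. The receptor genes kept 19, 18, and 10 of 47 peaks. Within that list *Flt3*, whose gene body holds the cluster named by *Urad*, kept 8, 8, and 6 of 11, whereas the 3 *Cxcr4* clusters kept 5, 5, and 1 of 24. The largest *Cxcr4* cluster, 13 peaks at chr1:128587379-128627237, kept 1 peak in each of the 3 genotypes. The genes of proliferation and survival kept 9, 16, and 10 of 34 peaks, and the 3 *Cdk6* clusters 3, 9, and 4 of 22.

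The myeloid factors kept 12, 5, and 4 of 16 peaks, 12 of which belong to *Irf8*. *Spi1* kept 3, 2, and 1 of 4. *Ikzf1* kept 2, 1, and 1 of 8, and the erythroid genes kept 2, 3, and 4 of 8, all of them at *Car2*, since *Sptb* kept 0 of 4 in each genotype. In a cluster of 4 peaks, 1 peak moves the share kept by 25.0 points.

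Of the 320 clusters of 5 or more peaks, 18 kept 0 peaks in *Ep300*Δ/Δ, and 6 of these are named, in order of size and then of chromosome. *St3gal1*, a sialyltransferase gene (chr15:67117008-67125500), kept 0 of 7, and 1 each in *Tet2*-/- and the double mutant. *Cdh1*, the gene of E-cadherin, kept 0, 2, and 0 of 6, and *Apbb1ip*, a gene of integrin activation (chr2:22777829-22785176), kept 0, 0, and 1 of 6. A 5-peak cluster of *Cxcr4* kept 0, 1, and 0, that of *Soat1* 0, 2, and 1, and that of *Fmo9* 0, 2, and 0. In the double mutant, the 6 largest clusters that kept 0 peaks were those of *Otulinl*, *Rassf4*, *Sgms2*, *Alas1* (the first enzyme of heme synthesis), *Nedd9*, and *Adgre1* (the macrophage marker F4/80), with 7 or 8 peaks each. At *Otulinl* the 8 peaks had H3K4me1 in all 4 genotypes, whereas at *Sgms2* H3K4me1 covered 52.0% of the span in WT and 15.4% in the double mutant. In all, 17 clusters kept 0 peaks in all 3 genotypes, and all 17 had 4 or 5 peaks. They include those of *Sptb*, the erythroid spectrin gene, and *Ncf4*, a subunit of the phagocyte oxidase.

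Only 5 clusters kept every peak in all 3 genotypes, those of *Map3k14* and *Rnase12* with 5 peaks and of *Coq2*, *Tex44*, and *Rftn1* with 4. *Map3k14* encodes NIK, the kinase of the noncanonical NF-κB pathway. Its 5 peaks had WT folds from 7.15 to 10.9. The *Rnase12* cluster, 2.79 kb long, was unlike the rest: H3K4me3 overlapped all 5 of its peaks in all 4 genotypes, and H3K4me1 1 of 5.

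The clusters that differed most between the single mutants were chosen for that difference, so it is only described. More kept in *Ep300*Δ/Δ were *Tex2* (6 against 1 of 6), *Irf8* (9 against 3 of 12), *Rps6ka1* (3 against 0 of 6), and *Ifnar1*, a chain of the type I interferon receptor (7 against 3 of 9). In the double mutant these kept 2, 3, 0, and 1 peaks. More kept in *Tet2*-/- were *Atxn1* (6 against 1 of 7), *Cd84* (4 against 1 of 5), *Rgl1* (4 against 1 of 5), and *Egln3*, an oxygen-sensing hydroxylase gene (3 against 0 of 5). In the double mutant these kept 5, 1, 2, and 0 peaks.

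H3K4me1 was present at most clustered peaks whether or not acetylation was kept. It overlapped 88.5% of the clustered WT H3K27ac peaks in *Ep300*Δ/Δ (82.2% of all distal peaks) and 92.9% in *Tet2*-/- (85.8%), with 90.8% in the double mutant (83.7%). Where acetylation was lost in *Ep300*Δ/Δ, H3K4me1 was there in 84.3% (82.5% to 85.9%), and where it was kept, in 94.1% (92.7% to 95.3%). In *Tet2*-/- the shares were 90.0% and 96.0%, and in the double mutant 88.9% and 95.3%. Outside the clusters, lost peaks had H3K4me1 in 73.7%, 76.4%, and 76.4%. Of the 1320 clustered peaks kept in none of the 3 genotypes, 981 (74.3%, 71.9% to 76.7%) had H3K4me1 in all 3, against 57.2% (55.5% to 58.9%) of such peaks outside clusters. The H3K4me1 lists were 3.62 to 5.10 times as long as the H3K27ac list of the same genotype, so an overlap with H3K4me1 was easier to find. The median share of a span covered by H3K4me1 was 53.7% in WT, 44.2% in *Ep300*Δ/Δ and 55.7% in *Tet2*-/-, with 46.8% in the double mutant.

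H3K4me3 overlapped 17.2% of clustered peaks in *Ep300*Δ/Δ (20.8% of all distal peaks) and 23.8% in *Tet2*-/- (27.1%), with 19.1% in the double mutant (22.7%). It went with kept acetylation: in *Ep300*Δ/Δ it was at 31.7% of kept and 6.22% of lost peaks, in *Tet2*-/- at 39.9% and 8.95%, and in the double mutant at 44.2% and 8.56%. The same split was present outside clusters, at 42.7% and 11.3%, 46.9% and 13.5%, and 54.6% and 12.1% in the same order. Most promoters of the naming genes had an H3K27ac peak in every genotype. Of 440 such promoters with an H3K27ac peak in WT, 91.6% had one in *Ep300*Δ/Δ and 94.3% in *Tet2*-/-, with 85.7% in the double mutant. Over all 10080 genes with a WT promoter peak the shares were 92.1%, 93.9%, and 87.8%. Of the 586 clusters, 10.8%, 6.14%, and 23.2% were without a kept peak. These shares are not like for like with those of promoters, since a cluster has 4 or more peaks that can be kept.

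Within 100 bp of the summit, no searched sequence differed between clustered and other distal peaks beyond the counting intervals, but IRF did within 250 bp. Within 100 bp of the summit, the ETS sequence was in 29.1% of clustered peaks (27.6% to 30.7%), 29.7% of the others, and 26.5% of all autosomal WT peaks. The E-box was in 14.8%, 14.8%, and 12.6%, MYB in 8.05%, 8.95%, and 8.93%, and GATA in 6.99%, 7.21%, and 5.48%. CEBP was in 6.60%, 6.64%, and 5.59%, AP-1 in 6.51%, 5.92%, and 4.54%, and RUNX in 4.36%, 5.05%, and 3.62%. PU.1 was in 1.60%, 2.06%, and 1.48%, IRF in 1.54%, 2.09%, and 1.82%, and CTCF in 1 clustered peak. In all of these the intervals of clustered and other distal peaks overlapped. With 250 bp on either side, IRF was in 6.69% of clustered peaks (5.86% to 7.60%) and 8.79% of the others (8.15% to 9.46%), and the intervals of the other 9 sequences still overlapped. Kept and lost clustered peaks also had overlapping intervals in all 3 genotypes, for ETS for example 29.9% of kept and 28.5% of lost peaks in *Ep300*Δ/Δ, and for MYB in *Tet2*-/- 9.36% of kept (7.97% to 10.9%) and 6.86% of lost peaks (5.71% to 8.15%). The median GC content of the windows was 51.2% in both groups, with 3.03 CpG per window in clusters and 3.26 outside.

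Because clusters picked in 1 list must look poorer in the others, each list was also stitched on its own by the same rule. WT had 586 clusters, *Ep300*Δ/Δ 236, *Tet2*-/- 232, and the double mutant 75. The share of distal peaks in clusters was 31.0%, 21.7%, 15.9%, and 8.42%. With the 4169 strongest distal peaks of each list, as many as the double mutant list had, there were 114, 149, 79, and 75 clusters. The order of WT and *Ep300*Δ/Δ depended on how the lists were made equal. *Ep300*Δ/Δ had more clusters at equal numbers of distal peaks, a setting chosen after the data were seen. WT had more when whole lists were cut to equal size (155 against 118) and with −log10 q of 5 or more (293 against 49). *Tet2*-/- and the double mutant were below both at equal numbers of distal peaks and at equal list size, whereas with the −log10 q limit *Tet2*-/- had 109, above *Ep300*Δ/Δ, and the double mutant 31. At equal numbers the share of distal peaks in clusters was 13.3% in WT (12.3% to 14.4%), 17.5% in *Ep300*Δ/Δ (16.3% to 18.6%) and 9.04% in *Tet2*-/- (8.19% to 9.95%), with 8.42% in the double mutant (7.59% to 9.30%).

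**Figure D5:**
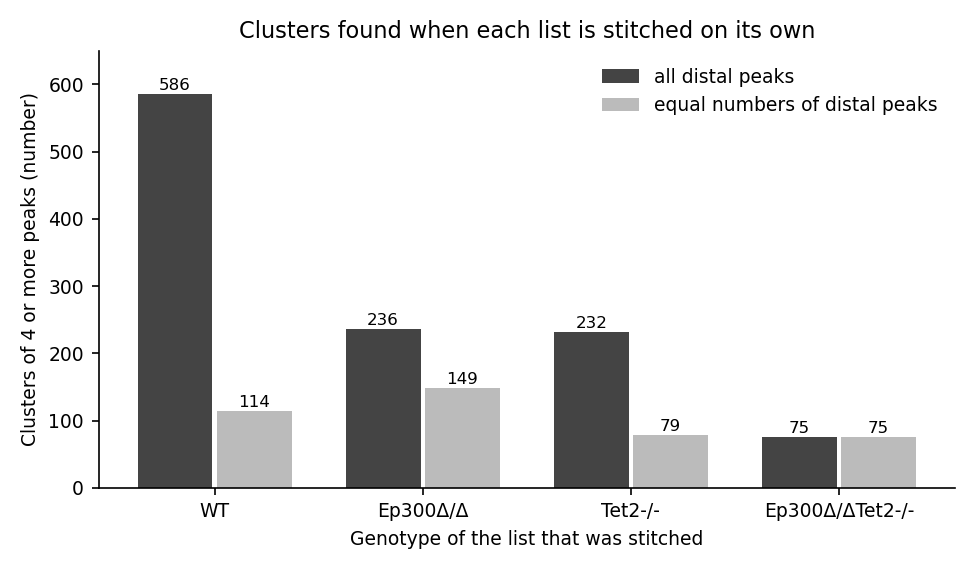
Number of clusters of 4 or more distal H3K27ac peaks (vertical axis) when the list of each genotype (horizontal axis) is stitched on its own, with all distal peaks (dark) and with equal numbers of distal peaks (light). WT falls from 586 to 114 clusters, below the 149 of *Ep300*Δ/Δ at equal numbers of distal peaks, although with whole lists of equal size, which are not drawn, WT has 155 and *Ep300*Δ/Δ 118.

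Read in the other direction, clusters of the mutants were mostly present in WT. Of the clusters stitched in *Ep300*Δ/Δ 182 of 236 overlapped a WT cluster, in *Tet2*-/- 179 of 232, and in the double mutant 61 of 75. These met 31.1%, 30.2%, and 10.2% of the 586 WT clusters. Of the peaks in the *Ep300*Δ/Δ clusters 88.5% overlapped a WT peak, against 78.3% of the distal peaks outside them. For *Tet2*-/- the shares were 81.1% and 64.3%, and for the double mutant 90.3% and 72.0%. Among clusters absent from the WT set, the largest were named by *Ahnak* in *Ep300*Δ/Δ (6 peaks, 3 in WT), *Dnm2* in *Tet2*-/- (7 peaks, 4 in WT), and *Ppara* and *Chd7* in the double mutant (5 peaks each, 3 and 2 in WT). A span of *Meis1*, a homeobox factor gene of stem cells (chr11:18948710-18970596), had 4 peaks in *Ep300*Δ/Δ and 4 in the double mutant, but 0 in WT and 1 in *Tet2*-/-.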

How the data were processed

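Lin- cells of 4 genotypes were profiled by ChIP-Seq for histone marks, of which H3K27ac, H3K4me3, and H3K4me1 were analysed. The authors used Cutadapt 1.15 for trimming, BWA 0.7.13 for alignment (mm10), and Picard for duplicates, and called narrow peaks with macs2 2.1.1.20160309 against the H3 library. Peaks had to overlap pseudo-replicate peaks, at a stated q under 0.05, yet the deposited H3K27ac lists held peaks with a q over 0.05, which numbered 1630 for *Ep300*Δ/Δ, against 267 for WT, 199 for *Tet2*-/-, and 143 for the double mutant. The deposited lists give a fold enrichment over H3, a ratio, and a −log10 q-value for each peak, and these were used to rank peaks within 1 list and, for the q-value, to set limits in alternatives. The H3 and H3K27me3 samples were not analysed here. The number of reads per library is not given in the lists, so precision rests on counts of peaks.

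Distance to starts used GENCODE release M21 on GRCm38, and sequences came from the RefSeq copy of GRCm38.p6. Stitching, overlaps, and counts were made in Python 3.11.15 with numpy 2.4.6, pandas 2.3.3, and scipy 1.17.1. They were tested on simulated data with known clusters and checked against bedtools 2.31.1. Named clusters were the 12 largest, those of 5 or more peaks with the smallest share kept (6 each in *Ep300*Δ/Δ and the double mutant), those kept whole in all 3 other lists, the 4 on either side that differed most between the single mutants, and those at genes of 12 lists. Clusters of 4 peaks kept whole or lost whole, and clusters found only in a mutant list, were named after their values were seen. The members and lists were chosen with earlier results of these data known. Alternatives changed the gap, the number of peaks, the distance to starts, the overlap, and the q value, and lists of equal size were compared. With 1 library per genotype and mark, no test between genotypes was made. The sequence of 1 further lost peak is not reported here.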

Additional observations from a re-analysis of the deposited data

Results flagged for a closer look

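In 4 of the named clusters the number of H3K27ac peaks in the span moved one way between WT and *Ep300*Δ/Δ and the other way between *Tet2*-/- and the double mutant. With 1 library each, this difference was not tested. How often it occurred among all WT clusters is not given, so whether 4 is many cannot be judged. The named clusters were also not a random draw. *Apbb1ip* was named for its small share kept in *Ep300*Δ/Δ, and *Tex2* for its large difference between the single mutants. Their low counts in those lists follow in part from that choice. The *Slc22a16* span had 14 peaks in WT and 8 in *Ep300*Δ/Δ (a difference of -6) but 8 in *Tet2*-/- and 9 in the double mutant (a difference of 1). The *Cd47* span went from 18 to 19 (1) without *Tet2* loss and from 13 to 8 (-5) with it. The *Apbb1ip* span went from 6 to 0 (-6) and from 0 to 1 (1), and the *Tex2* span from 6 to 5 (-1) and from 1 to 2 (1). Of these, 3 rest on a single peak in the *Tet2*-/- pair, and *Cd47* on a single peak in the other pair. Peaks can also merge or split between lists. In *Ep300*Δ/Δ all 6 WT peaks of the *Tex2* cluster were kept although the span held 5 peaks, so that fall is not a lost peak. The *Cd47* span held 19 peaks in *Ep300*Δ/Δ although 10 of the 14 cluster peaks were kept.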

How the results depend on the processing

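A single library per group, unknown depth, and close neighbors limit these results. The count of 586 clusters became 293 with WT peaks of −log10 q 5 or more, 155 with the WT list cut to the length of the shortest list, 1113 with 3 or more peaks, and 195 with 6 or more. It stayed within 1.5 times under the other alternatives, from 394 (gap 5 kb) to 795 (1000 bp from starts).

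Shares of clustered peaks kept are given in the order *Ep300*Δ/Δ, *Tet2*-/-, double mutant. They were 28.2%, 38.1%, and 22.0% with an overlap of at least 50% of the WT peak. With a peak within 500 bp they were 56.8%, 62.7%, and 41.4%, and with lists of equal size 57.4%, 54.1%, and 48.3%, where *Ep300*Δ/Δ passed *Tet2*-/-. They were 23.3%, 38.1%, and 22.9% with −log10 q of 5 or more in the other list, and 55.2%, 58.7%, and 38.3% with that limit on WT peaks. In clusters of 6 or more peaks *Ep300*Δ/Δ kept 45.3%. With only the other list cut to the shortest length, an alternative added after the data were seen, the first pair of shares became 33.4% and 33.2%.

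Clustered minus outside, in points, became 4.42, -0.15, and -1.22 with the 50% overlap and 14.63, 8.83, and 7.14 within 500 bp. Within 500 bp, a peak at a neighbor can count for a lost clustered peak, because 57.5% of gaps in clusters were under 1 kb. That setting therefore favors clustered peaks by the rule itself. With lists of equal size *Tet2*-/- was at -3.00 and the double mutant at -0.80, and with −log10 q of 5 or more in WT at -0.15 and -1.15. With the other list cut, *Tet2*-/- was at 0.47. Within the 4 parts by fold *Ep300*Δ/Δ gave 4.88, 2.16, 4.02, and 2.86, *Tet2*-/- -0.79, -1.77, and -3.35 in the first 3, and the double mutant -2.13, -2.03, -4.68, and -0.74. The *Ep300*Δ/Δ difference was positive in all alternatives run. The sign in the other genotypes depended on the setting, and the cause was not tested.

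Clusters stitched in *Ep300*Δ/Δ numbered 118 with lists of equal size, 49 with −log10 q of 5 or more, and 149 with equal numbers of distal peaks (added after the data were seen). Those in *Tet2*-/- numbered 79, 109, and 79, and those in the double mutant 31 with −log10 q of 5 or more. The order of *Ep300*Δ/Δ and *Tet2*-/- turned with the −log10 q limit, and that of WT and *Ep300*Δ/Δ turned with equal numbers of distal peaks (114 and 149). The E-box difference between clustered and other peaks turned from 0.01 to -2.26 points with 250 bp on either side of the summit. No paired analysis was possible because each group had 1 library.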
